A study of Mus musculus with 2 samples.

Results

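The genes described here are those of peptide signalling in J-RGCs: neuropeptide precursors, granins, and the enzymes that cut and finish peptides. They were chosen as a list of 37 gene symbols, all 37 of which were present among the 24015 symbols counted. By role they fall into 26 peptide precursors, 6 granins and related proteins, and 5 processing genes. J-RGCs are retinal ganglion cells marked by the adhesion molecule Jam2. In this study a transgenic line described as specific to the type labelled them with green fluorescent protein, and they were sorted from mouse retina at postnatal day 6 by magnetic beads and flow cytometry. There was 1 group of 2 libraries, A and B, each pooled from several animals of a separate litter, with no second cell type, age or treatment. The labels do not name the strain or the promoter of the transgene. SDs here describe the spread between 2 pools.

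Neuropeptides are made as larger precursors that enter dense-core vesicles, where prohormone convertases cut them at paired basic residues, a carboxypeptidase trims the ends and an amidating enzyme finishes many of them. Granins are acidic proteins that aggregate in the same vesicles and help load them. In the retina most classical neuropeptides are known from amacrine cells, while a few, such as PACAP in melanopsin-expressing cells and CART in direction-selective cells, are known from ganglion cells. In a sorted pool a low level can mean few cells that use a gene or little RNA in each, and these cannot be told apart here.

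The gene counts came to 7916204 in library A and 13744313 in library B. Values are counts scaled to 1000000 gene counts per library (CPM), A before B, or mean ± SD over n = 2 libraries. CPM follows transcript length, so levels of different genes are compared as CPM per kilobase of summed exon length (CPM per kb). CPM without length correction served for the detection minimums, the summed marker levels and the comparison of a gene between libraries. Shares of gene counts are not corrected for length either. CPM also picked which genes of the surrounding lists are named. The sort was checked against markers. Jam2 stood at 2344 and 1203 CPM, and all 8 ganglion cell markers, among them Slc17a6 and Rbpms, exceeded 100 CPM in both libraries. Of 11 amacrine markers 4 were detected, with a summed level of 126 and 108 CPM. Their highest members were Gad2 (57.6 ± 1.14 CPM), Tfap2b and Tfap2a, while Chat was at 0 in A, Slc18a3 at 0 in B, and Th and Slc32a1 were below 1 CPM in both. Microglia markers summed to 281 and 343 CPM, Müller glia markers to 144 and 216 CPM, and rod markers to 25.01 and 19.1 CPM. Endothelial and mural markers summed to 395 and 104 CPM, most of it from the mural genes Rgs5 and Pdgfrb, while the endothelial genes Cdh5 and Pecam1 were higher in B. Cycling cell markers summed to 154 and 64.8 CPM. Bipolar markers summed to 335 and 291 CPM, mainly Isl1, which ganglion cells share, and Prkca, with Grm6 at 96.4 and 0.582 CPM. Horizontal cell markers summed to 14.5 and 30.5 CPM with Lhx1 at 0 in both, and astrocyte markers to 0.884 and 2.11 CPM. The part of these cells in the results below was not tested unless a value is given beside a result.

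All granin and processing genes were detected in the J-RGC libraries, most of them above the median gene, while most peptide precursors were low or had no read. Per length, Pcsk1 in A, at 0.248 CPM per kb, was the exception among the former and lay below the median of all genes with a count and a length. Detection means 1 CPM or more in each of the libraries, without length correction, so a short transcript reaches it less easily. By that rule 17 of the 37 genes were detected, against a background of 46.8% of all symbols: 6 of 26 precursors, 6 of 6 granins and 5 of 5 processing genes. At 10 CPM or more in each library there were 11 genes (background 27.8%), of which 3 were precursors. At 100 CPM or more there were 6 (background 6.53%), none of them a precursor. Of the precursors 8 had no read in either library and 12 had reads but fell below 1 CPM in at least 1 library.

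The median level of the 26 precursors was 0 and 0.32 CPM per kb. The granins had a median of 43.8 and 67.5 CPM per kb and the processing genes one of 15.7 and 9.56 CPM per kb. The median of all 16789 genes with a count and a length was 1.51 and 2.27 CPM per kb. The precursor median lay below it and the other medians above it in both libraries. The sets are unlike, since the precursors include 8 genes with no read and the 16789 leave such genes out, which widens that gap. On the log2 scale with 0.5 CPM per kb added, the median of the 11 granin and processing genes exceeded that of the precursors. The difference was 5.02 ± 0.279 (SD, n = 2), at 5.21 in A and 4.82 in B. That size rests on the members near 0: over members with at least 10 counts in all it was 2.72. Gene by gene the roles overlapped. By mean CPM per kb, Cartpt (20.6) stood above Chga (17.3), and Npy (5.99) above Pcsk1n (3.86), Vgf (2.60) and Pcsk1 (1.95). As a share of gene counts, precursors took 0.0110% and 0.0143%, granins 0.0855% and 0.123%, and processing genes 0.175% and 0.201%. All 37 genes together took 0.305% ± 0.0473, and the order of the 3 roles was the same in A and B. These shares are not corrected for length, and per length the granin median exceeded that of the processing genes.

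**Figure D1:**
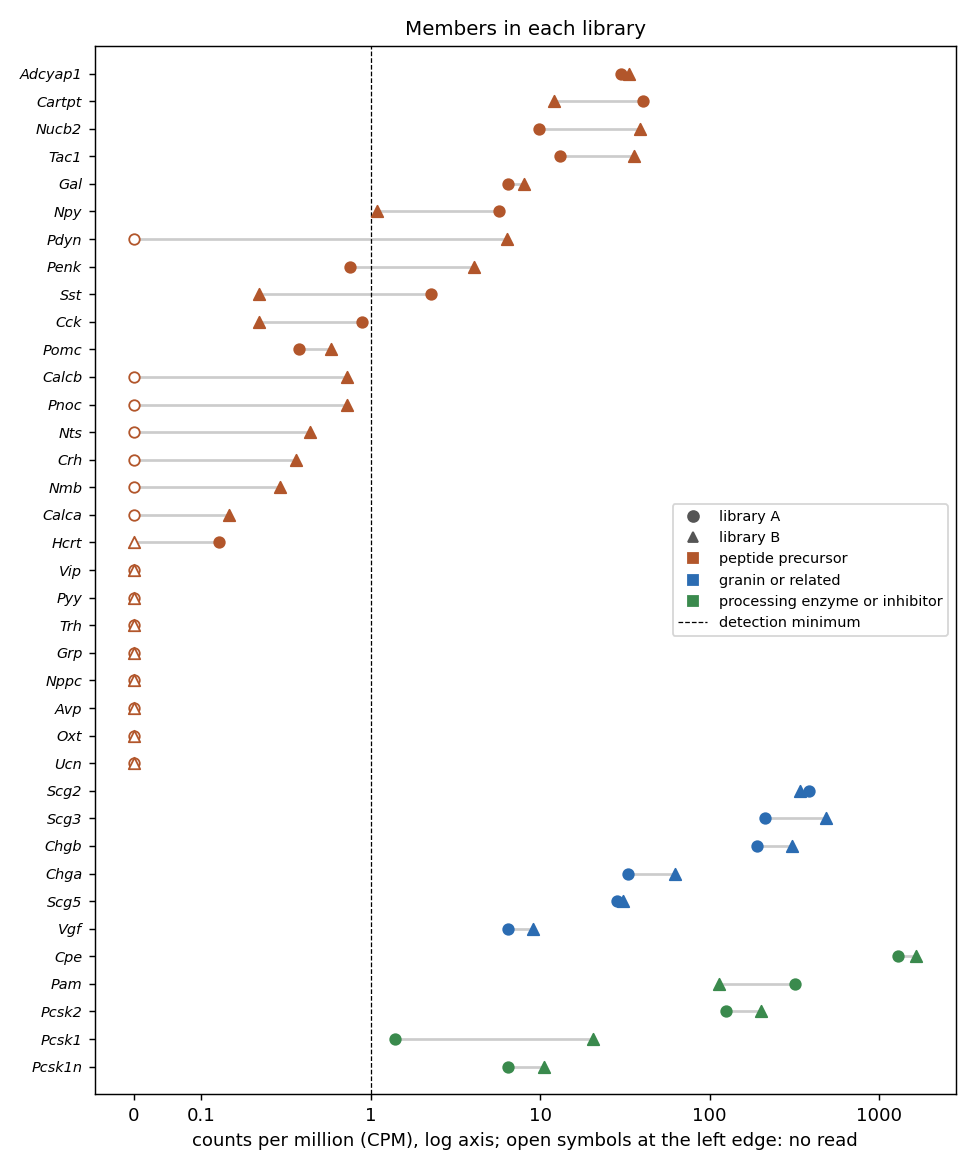
CPM of each of the 37 genes in library A (circles) and library B (triangles) on a log axis, coloured by role; open symbols at the left edge mark genes with no read in that library and the dashed line marks 1 CPM. All granins and processing genes lie to the right of the line in both libraries, whereas 20 of the 26 precursors have at least 1 symbol to its left.

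**Figure D2:**
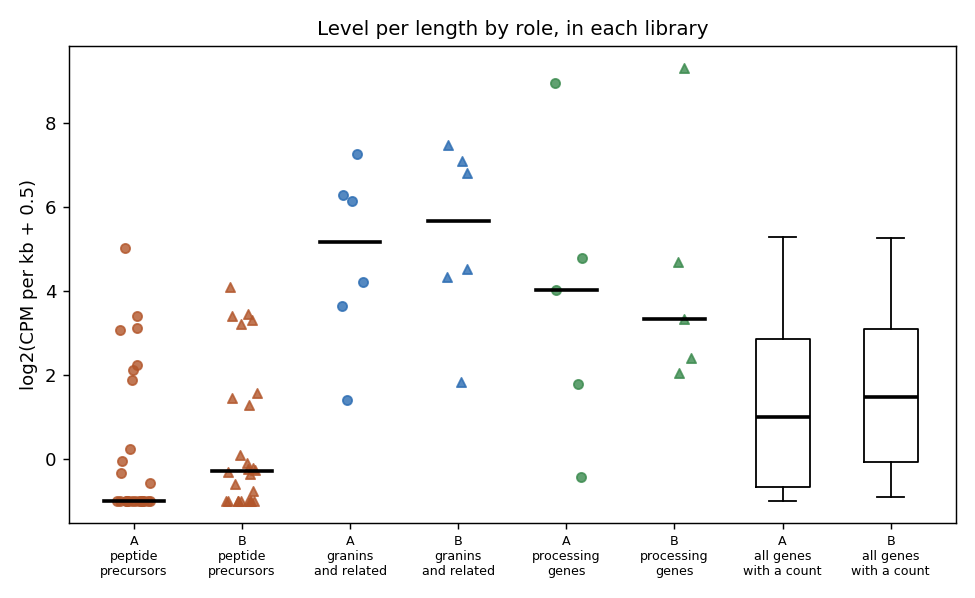
Level per length, as log2 of CPM per kb plus 0.5, for the genes of each role in each library, with the median as a bar; the boxes show the median, quartiles and 5th and 95th percentiles of all 16789 genes with a count and a length. The precursor medians, which include genes with no read, lie below the medians of those 16789 genes, and the medians of the granins and processing genes lie above them.

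A well-known element of peptide gene promoters stood before genes at very different levels. The cAMP response element (CRE) has the palindromic letters TGACGTCA and is bound by CREB-family factors. It was looked for, on both strands, in the 250 bases upstream of each start site in RefSeq's GRCm38.p6 promoter table, which held 30 of the 37 genes. Penk, Crh, Grp, Calcb, Pnoc, Vgf and Cpe were not in that table, so they were not searched. The CRE stood before 6 of the 30, and before 1.77% of all 27025 genes in that table (1.55% of 32851 windows). Those 6 genes reached from the second highest level per length in the whole list (Scg2) to a gene with no read (Ucn). For that reason the 120 bases before their start sites are shown, 5′ to 3′ on the strand of the gene, with the CRE in capitals. Chga, which had TGACGTAA at a similar distance, letters held by 0.525% of genes in the table, is shown last with those in capitals.
Scg2: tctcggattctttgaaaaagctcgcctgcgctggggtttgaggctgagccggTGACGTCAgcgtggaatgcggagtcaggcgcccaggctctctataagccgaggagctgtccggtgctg
Chgb: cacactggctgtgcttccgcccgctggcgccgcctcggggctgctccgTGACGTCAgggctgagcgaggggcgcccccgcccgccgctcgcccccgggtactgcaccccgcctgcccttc
Cartpt: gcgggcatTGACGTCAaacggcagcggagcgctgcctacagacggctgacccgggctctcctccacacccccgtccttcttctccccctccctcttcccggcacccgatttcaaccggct
Pcsk1: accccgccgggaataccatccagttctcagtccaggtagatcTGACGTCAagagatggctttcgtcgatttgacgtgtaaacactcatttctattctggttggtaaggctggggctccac
Sst: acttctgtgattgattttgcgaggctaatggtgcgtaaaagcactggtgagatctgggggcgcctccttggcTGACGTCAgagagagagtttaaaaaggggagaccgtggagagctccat
Ucn: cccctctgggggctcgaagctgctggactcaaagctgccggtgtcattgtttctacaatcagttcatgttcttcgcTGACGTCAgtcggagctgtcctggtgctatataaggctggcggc
Chga: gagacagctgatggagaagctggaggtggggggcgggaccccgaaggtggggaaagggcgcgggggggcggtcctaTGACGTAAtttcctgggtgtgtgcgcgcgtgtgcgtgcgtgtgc
On GRCm38.p6 these windows are chr1:79440027-79440146 on the minus strand for Scg2, chr2:132781522-132781641 on the plus strand for Chgb, chr13:99900684-99900803 on the minus strand for Cartpt and chr13:75089737-75089856 on the plus strand for Pcsk1. Those of Sst and Ucn are chr16:23890845-23890964 and chr5:31138896-31139015, both minus, and that of Chga is chr12:102554821-102554940, plus. The first base of the CRE lay 44 bases before the start in Ucn, 48 in Sst, 68 in Scg2, 72 in Chgb, 78 in Pcsk1 and 112 in Cartpt. In the same order, mean levels were 0, 1.73, 144, 90.9, 1.95 and 20.6 CPM per kb. Genes with the letters reached from 0 to 144 CPM per kb, and the 24 without them in the table from 0 to 127 CPM per kb. The median of the 6 was 17.5 CPM per kb in A and 6.56 in B, against 0.483 and 1.18 for the 24. Granin and processing genes are Scg2, Chgb and Pcsk1 among the 6, and Scg3, Scg5, Chga, Pcsk2, Pcsk1n and Pam among the 24. The roles are thus unevenly split, and the medians were not adjusted for role. Detected were 4 of the 6 and 11 of the 24, against 46.8% of all symbols. A link between the CRE and the level was not tested. The half-site TGACG, which is part of the CRE, stood before 17 of the 30 and before 19.8% of all genes. A match describes letters in a window and does not show that a factor binds there.

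Among the peptide precursors no single gene led in both libraries. Cartpt, which encodes the CART peptides, stood at 40.5 and 12.1 CPM, or 31.8 and 9.46 CPM per kb, and was the highest precursor per length in A. Nucb2, the precursor of nesfatin-1, stood at 9.85 and 38.9 CPM, or 4.23 and 16.7 CPM per kb, and was the highest in B. The libraries thus put these genes in opposite order, and the ratio of Cartpt to Nucb2 was 7.51 in A, where its interval excluded 1, and 0.566 in B. Over both it was 1.97 with a 95% interval of 0.670 to 5.79.

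Adcyap1, which encodes PACAP, was the precursor that agreed best between the libraries among those above 10 CPM, at 29.8 and 33.3 CPM (8.36 ± 0.657 CPM per kb, n = 2). Per length it was not separated from Cartpt over both libraries (ratio 0.406, 95% interval 0.153 to 1.08). That ratio was 0.249 in A, where the interval excluded 1, and 0.933 in B. Nor was Adcyap1 separated from Nucb2 (0.799, interval 0.290 to 2.20), at 1.87 in A and 0.528 in B. The markers of photosensitive ganglion cells, which are known for PACAP, were all 3 detected, with Opn4 at 15.0 and 25.9 CPM and a summed level of 158 and 127 CPM. Vip, a close relative of Adcyap1 in sequence, had no read, and Adcyap1 was at least 70.9-fold higher per length in A and at least 138-fold in B, against a floor of 3 counts in each library. That floor equals 0.379 CPM in A and 0.218 CPM in B and covers counting error only, since the reads carry no molecular identifiers.

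Cartpt is also known from ON-OFF direction-selective ganglion cells. Of the 4 other markers of those cells all were detected, and they summed to 162 and 182 CPM. Cartpt was lower in B, as was Fstl4 at 115 and 72.2 CPM, whereas Cdh6 (29.9 and 58.8 CPM), Mmp17 (9.60 and 37.4 CPM) and Col25a1 (7.45 and 14.04 CPM) were higher there. Which cells of the pool gave the Cartpt reads was not tested.

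Tac1, the precursor of substance P and neurokinin A, stood at 13.0 and 35.7 CPM. Gal, which encodes galanin, was close to even at 6.44 and 8.003 CPM (9.17 ± 1.40 CPM per kb, n = 2), which differs from Adcyap1 per length by less than its SD. Npy, neuropeptide Y, stood at 5.68 and 1.09 CPM, only just past the minimum in B. With Cartpt, Nucb2 and Adcyap1 these were the 6 detected precursors.

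Of the opioid precursors Penk, Pdyn and Pnoc were called higher in B. Penk, the enkephalin precursor, stood at 0.758 and 4.07 CPM, from 6 and 56 counts. Pdyn, the dynorphin precursor, had no read in A and 88 counts (6.403 CPM) in B, which is at least 16.9-fold higher against the floor in A. Per length Penk was 1.33-fold of Pdyn over both libraries (interval 0.32 to 5.56), so the order of the pair was not resolved. Pnoc, the nociceptin precursor, had 0 and 10 counts, and its call ended under the alternative scalings of the libraries. Pomc, the melanocortin and endorphin precursor, had 3 and 8 counts (0.379 and 0.582 CPM) and was not called.

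Sst and Cck, like Tac1 and Npy, are known from amacrine cells. Sst, somatostatin, had 18 and 3 counts (2.27 and 0.218 CPM), and per length it stood at 0.289 of Npy (interval 0.0714 to 1.17). Cck, cholecystokinin, had 7 and 3 counts, at 0.884 and 0.218 CPM, and Tac1 exceeded it 16.9-fold per length (interval 4.80 to 59.8), by 5.65-fold using A only and 62.7-fold using B only. Pyy, a relative of Npy, had no read, so Npy was at least 16.7-fold higher per length in A and at least 5.57-fold in B. Beside these, Gad2 was even between the libraries, whereas Gad1 (1.01 and 4.80 CPM) and the glycine transporter gene Slc6a9 (0.758 and 4.44 CPM) were higher in B. Tfap2a (23.2 and 10.04 CPM) and Tfap2b (42.2 and 30.9 CPM) were higher in A. The amacrine markers thus went both ways. So did the precursors, with Tac1, Penk and Pdyn higher in B and Npy and Sst higher in A. Of all genes tested 32.3% were called higher in B and 10.3% in A, so a shared direction was not read as a link. The part of amacrine cells in these values was not tested.

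The remaining precursors were at or near the floor. Nts, Crh, Nmb and Calca had 6, 5, 4 and 2 counts in B and none in A. Calcb, which like Calca encodes a calcitonin gene-related peptide, had 0 and 10 counts. The pair holds similar coding exons, so reads may have been lost from either. No ratio was taken because Calca had fewer than 10 counts in all. Hcrt, the orexin precursor, had 1 count in A. Besides Vip and Pyy, no read was found for Trh, Grp, Nppc, Avp, Oxt or Ucn, each of which could have stood at up to 0.379 CPM in A and 0.218 CPM in B. Of 36 further precursors of peptide hormones and neuropeptides 1 was detected, against 46.8% of all symbols, and 23 had no read. The 1 detected was Ghrh at 1.01 and 1.24 CPM. Tac2 had 2.15 CPM in A and none in B, Nppa 0.126 and 1.24 CPM, Npff 0 and 1.09 CPM and Edn3 0 and 0.582 CPM.

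The granins were led by Scg2, Scg3 and Chgb. Scg2, secretogranin II, which is itself cut into secretoneurin, stood at 384 and 340 CPM, the steadiest of the high members when scaled by gene total. That depends on the scaling. With edgeR's TMM factors its log2 ratio of B over A was -0.62, a larger shift than those of Cpe (-0.092), Chgb (0.24) and Pcsk2 (0.25). Scg3, which binds other granins to the vesicle membrane, stood at 213 and 485 CPM, and Chgb, chromogranin B, at 191 and 308 CPM. Per length these are 144 ± 12.3, 127 ± 70.2 and 90.9 ± 30.2 CPM per kb (n = 2). Among genes with a count and a length their percentiles ran from 97.6 for Chgb in A to 99.4 for Scg3 in B. Their order was not resolved, with Scg2 at 1.13-fold of Scg3 (95% interval 0.417 to 3.05), 1.96-fold using A only and 0.763-fold using B only, and 1.58-fold of Chgb (interval 0.607 to 4.13).

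The other granins stood well below. Chga, chromogranin A, was at 33.1 and 62.4 CPM, or 17.3 ± 7.51 CPM per kb. Scg2 exceeded it 8.31-fold (interval 3.27 to 21.1), by 12.7-fold using A only and 5.98-fold using B only. Chgb exceeded it 5.25-fold (interval 2.08 to 13.3), with the same direction in each library alone. Vgf, a granin-like precursor known for its induction by neurotrophins, was the lowest at 6.44 and 9.02 CPM, and Scg2 exceeded it 55.3-fold (interval 18.7 to 164). Scg5, the 7B2 chaperone that the convertase PC2 needs to mature, was nearly the same in both libraries at 28.3 and 30.8 CPM. Per length it was not separated from its client Pcsk2, at a ratio of 0.916 (interval 0.369 to 2.28), with 1.15 in A and 0.772 in B. Without length correction the log2 ratio was -2.46 ± 0.67 (SE).

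Of the processing genes Cpe was by far the highest. Carboxypeptidase E, which trims basic residues after the convertases cut, stood at 1297 and 1660 CPM, or 567 ± 98.3 CPM per kb (n = 2). It ranked 24 per length among all genes with a count and a length. Cpe alone held 47.8% and 49.1% of the counts of the 37 genes. Per length it exceeded Scg2 3.94-fold (95% interval 1.44 to 10.8) and Pcsk2 27.6-fold (interval 10.3 to 73.5). In A alone Cpe exceeded Scg2 3.26-fold, a log2 ratio of 1.70 ± 1.04 (SE) whose interval held a ratio of 1.

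Pcsk2, the convertase PC2, stood at 124 and 201 CPM and was clearly above Pcsk1, the convertase PC1/3, at 1.39 and 20.5 CPM. Per length the ratio was 10.5 (interval 3.02 to 36.6), 63.2 using A only and 6.94 using B only. Pcsk1n, the proSAAS precursor that inhibits PC1/3, was at 6.44 and 10.5 CPM and was not separated from Pcsk1 (1.97-fold, interval 0.503 to 7.74). In A alone that ratio was 11.8, with an interval that excluded 1, and in B alone 1.30. Pam, the amidating enzyme, stood at 320 and 114 CPM, and Cpe exceeded it 31.1-fold per length (interval 11.03 to 87.6), 18.5-fold using A and 66.6-fold using B. The annotated exons of Pam sum to 11892 bases and its longest transcript has 4102, so its level of 18.2 CPM per kb becomes 52.9 with the latter, above the 34.4 of Pcsk2 rather than below it. The log2 ratio of Cpe to Pam is then 3.72 instead of 4.96.

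In all, 20 pairs were set out, of which 17 could be given an interval, and in 8 it excluded 1. Of the others 2 were given as bounds, and Calca over Calcb was left out because Calca had too few counts. The intervals combine counting error with the spread of genes of like level between the libraries. A single biological coefficient of variation fitted to all filtered genes was 0.507, but the intervals used the spread at each gene's own level.

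**Figure D3:**
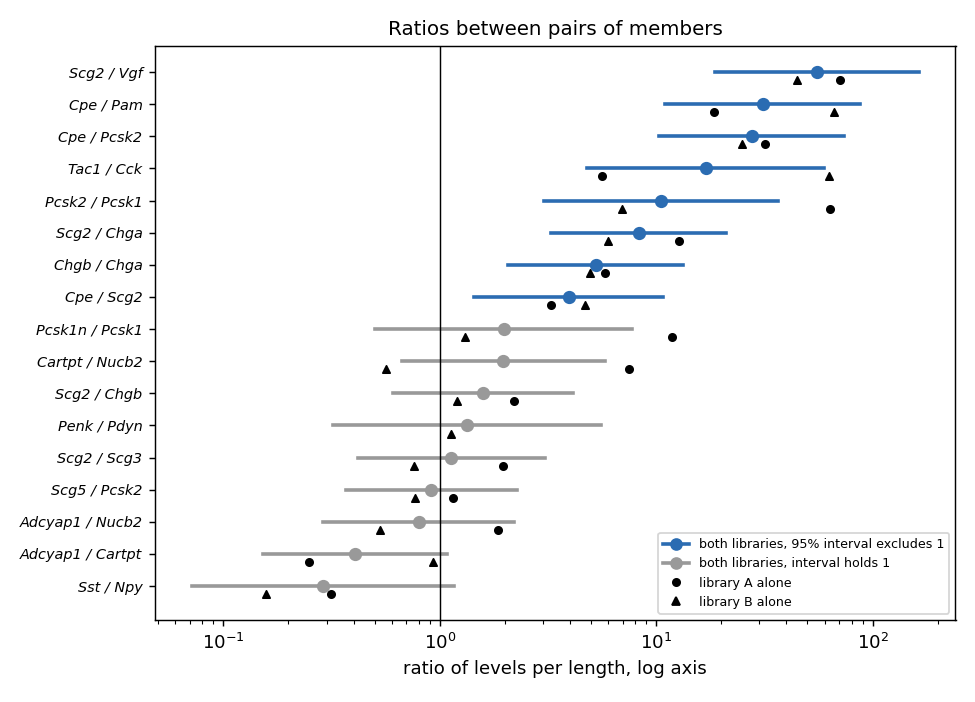
Ratio of level per length for 17 pairs of genes on a log axis, with the value over both libraries and its 95% interval (blue where it excludes 1) and the value in library A (circles) and library B (triangles) alone. The 8 blue pairs are those led by Scg2 over Vgf at 55.3 and closing with Cpe over Scg2 at 3.94; Penk over Pdyn has no value in A because Pdyn had no read there.

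The genes around the pathway were described in the same way, from lists of genes chosen for their function. As background, 46.8% of all symbols were detected and 6.53% reached 100 CPM in each library. Of 18 genes of dense-core vesicle formation and release 14 were detected, 7 of them above 100 CPM in each library. Their median was 9.34 and 9.22 CPM per kb. The synaptotagmin Syt4 (229 ± 20.4 CPM per kb), the small GTPase gene Rab2a (182 ± 61.2), Rph3a (133 ± 28.5), the vesicle priming gene Cadps (61.8 ± 13.0) and Vamp2 (61.2 ± 7.38 CPM per kb) were the 5 named by CPM. Cadps2, the paralogue of Cadps, was at 0.126 and 1.60 CPM. Of 12 further processing enzymes 9 were detected. Those named are Ctsl (42.0 ± 37.1 CPM per kb), Nrd1 (31.8 ± 5.93), Cpd (10.9 ± 4.64), the glutaminyl cyclase gene Qpct (5.84 ± 0.114) and Pcsk7 (4.69 ± 3.08 CPM per kb). Cpd is a carboxypeptidase related to Cpe. The convertase Furin stood at 7.58 and 16.6 CPM. Of 13 peptide-degrading enzymes 11 were detected, among them Ece1 (16.8 ± 13.7 CPM per kb), Trhde (14.4 ± 1.52), Nln (12.8 ± 2.28), Ide (11.3 ± 4.45) and Lnpep (6.97 ± 1.10 CPM per kb).

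Receptors for the peptides of the list were sparser. Of 40 such genes 14 were detected, against 46.8% of all symbols, and 10 had no read. The median, which includes those 10, was 0.0488 and 0.223 CPM per kb. Over all genes with a count and a length it was 1.51 and 2.27 CPM per kb. Vipr2, a receptor for both VIP and PACAP, was the highest at 204 and 105 CPM (34.7 ± 15.7 CPM per kb). The PACAP receptor gene Adcyap1r1 stood at 13.4 and 16.2 CPM and the other VIP receptor gene, Vipr1, had no read. Also named are the calcitonin-family receptor gene Calcrl (99.9 and 13.0 CPM), the nociceptin receptor gene Oprl1 (29.4 and 29.1), Trhr (13.6 and 22.3) and Npr2 (7.33 and 26.3 CPM). Ramp1, which Calcrl needs to form the CGRP receptor, had 0.126 CPM in A and no read in B. Calcrl is also found in endothelial cells. Of the endothelial markers Cdh5 (0.884 and 8.66 CPM) and Pecam1 (0.632 and 2.91 CPM) were higher in B and Cldn5 had 0 and 0.0728 CPM, while the mural markers Rgs5 (342 and 82.4 CPM) and Pdgfrb (51.9 and 10.3 CPM) were higher in A, as Calcrl was. Their part in the Calcrl level was not tested.

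The 2 libraries were compared gene by gene to show which members moved between them. This exact two-sided binomial test on the counts, with Benjamini-Hochberg adjustment over all 14107 genes with at least 10 counts, compares these libraries and not conditions. Its p-values cover counting error only, not the variation between litters or amplifications. A gene was called at an adjusted p under 0.05 and a change of 2-fold or more, with 0.5 CPM added to each value. Of the 37 genes 24 could be tested, 5 had fewer than 10 counts and 8 had none. Called were 12 of the 24, against 42.6% of all genes tested, with 8 higher in B (background 32.3%) and 4 higher in A (background 10.3%). The shares lie near the background, or rest on few genes, and say nothing particular to the list. With edgeR's TMM factors, which lowered every log2 ratio of B over A by 0.45 before the added 0.5 CPM, 9 were called, 4 higher in B and 5 in A, against 21.4% and 15.6% of all genes. The median log2 ratio was 0.56 over the 24 members and 0.53 over all genes tested, so a value near 0.53 is no shift relative to the rest of the library. A gene with no read in A could pass the minimum only through B.

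By role the calls were 9 of 13 precursors tested, 1 of 6 granins and 2 of 5 processing genes, against 42.6% of all genes tested. The difference between roles was not tested. Calls of the genes around the pathway are given with the gene total, where 32.3% of all genes tested were higher in B and 10.3% in A. Of 17 dense-core vesicle genes tested 6 were called higher in B and 0 in A. The further processing enzymes gave 1 call in B and 3 in A of 10 tested, the degrading enzymes 2 and 1 of 13, the receptors 8 and 2 of 22, and the further precursors 2 and 1 of 4. Pdyn and Pcsk1 moved furthest. Pcsk1 was 14.8-fold higher in B with a counting interval of 8.13 to 29.9, and its log2 ratio was 3.48 (exact binomial test, adjusted p = 1.84e-40). With 0.5 CPM added, these were the 2 members past 4-fold. Nucb2 was 3.95-fold higher in B (interval 3.11 to 5.08), Penk 5.38-fold (2.32 to 15.3), Tac1 2.74-fold (2.21 to 3.42) and Scg3 2.28-fold (2.16 to 2.40). Calcb and Pnoc, each at 0 and 10 counts, were at least 1.92-fold higher in B. The calls of Tac1, Scg3, Calcb and Pnoc ended with TMM factors. In the other direction, A exceeded B 3.36-fold for Cartpt (interval 2.78 to 4.07), 2.82-fold for Pam (2.64 to 3.002), 5.21-fold for Npy (2.85 to 10.1) and 10.4-fold for Sst (3.04 to 55.2, with 3 counts in B). Cck was 4.05-fold higher in A, but its interval (0.925 to 24.3) held 1, and it was called with TMM and DESeq2 factors but not with the gene total. Penk, Npy and Sst pass 4-fold as plain ratios, but not with 0.5 CPM added.

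Most of the abundant members stayed within 2-fold. Cpe was 1.28-fold higher in B, Pcsk2 1.62-fold, Chgb 1.61-fold and Chga 1.88-fold, while Scg2 was 1.13-fold higher in A. Of these Cpe turned to the side of A with TMM factors, at a log2 ratio of -0.092. Adcyap1, Gal and Scg5 were also within 2-fold, at 1.12-, 1.24- and 1.09-fold in favour of B, and turned in the same way.

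**Figure D4:**
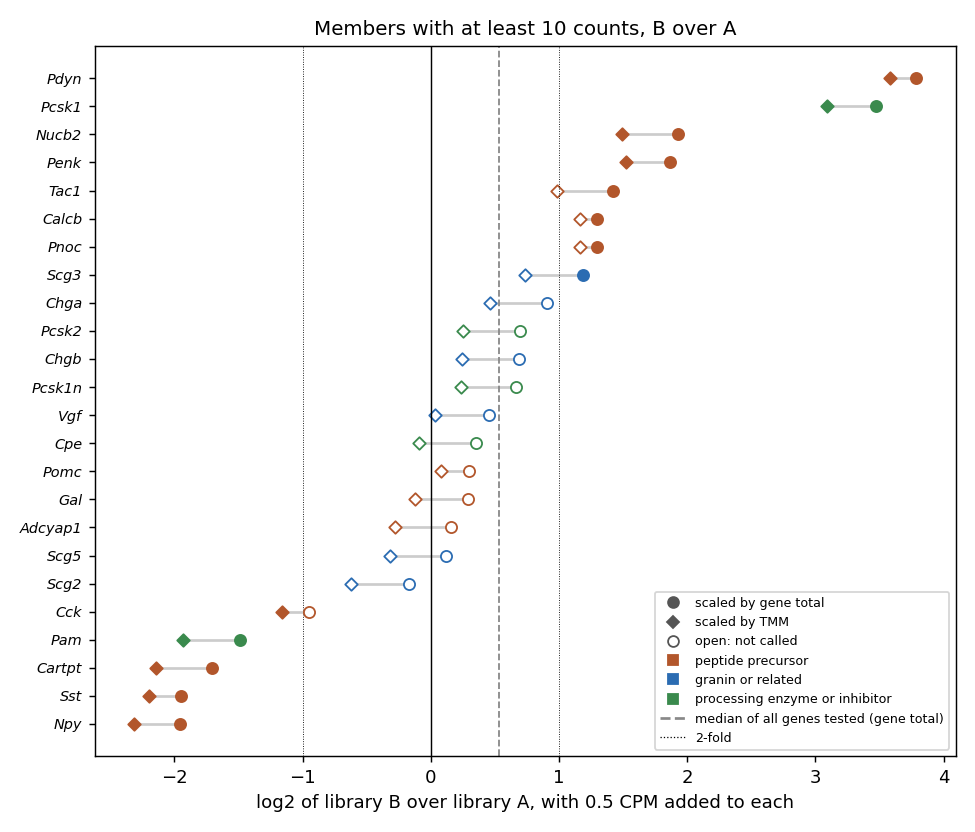
Log2 of library B over library A for the 24 genes with at least 10 counts, with 0.5 CPM added to each value, scaled by the gene total (circles) or by TMM (diamonds); filled symbols were called and the dashed line is the median of all genes tested, 0.53. Pdyn and Pcsk1 stand furthest to the right and Npy, Sst, Cartpt and Pam furthest to the left, while the granins and Cpe lie between.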

How the data were processed

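RNA was measured by single-end sequencing in 2 libraries of sorted J-RGCs. The deposited files give raw read counts per gene symbol. Per the submitters' processing notes, TopHat2 2.0.10, Trimmomatic 0.32 and HTSeq 0.6.1 were used, with build mm9. Gene annotation and strand setting: not given in the sources used here. Reads of genes that overlap on either strand therefore cannot be assigned with certainty. Summary lines naming no gene were left out: reads assigned to a gene were 26.8% of those listed in A and 30.9% in B.

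Counts were scaled to 1000000 gene counts. Exon lengths came from GENCODE M21, matched by symbol for 22709 of 24015 symbols and by an older symbol for 912. It is on another build than the counts, so no gene coordinates are given. Promoters, on GRCm38.p6, came from RefSeq. With 1 group, edgeR's quasi-likelihood test had no contrast. Dispersions came from edgeR 4.0.16 (R 4.3.3) on 11272 filtered genes, with DESeq2 1.42.0 size factors as an alternative scaling. Ratio intervals used the trended dispersion. Python 3.11.15 with scipy 1.17.1 did the rest. On simulated data with 3-fold changes over 13947 genes the binomial test recovered 93% of 200 and made 3 false calls. That simulation held counting error only, with no variation between pools, so it does not show how the test does on these libraries. At a simulated coefficient of variation of 0.5, over 12084 genes, 93.1% of ratio intervals held the true value, and at 0.707 it was 92.3%. Every gene in a run had the same coefficient of variation and varied independently, so the coverage on these libraries is not shown. All 37 genes may be named. Of each other list the 5 highest by mean CPM are named, and further genes were chosen after their values were seen. The members and lists were chosen with earlier results of these data known.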

Additional observations from a re-analysis of the deposited data

How the results depend on the processing

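The median of the granin and processing genes stayed above that of the precursors in every alternative run. The log2 difference of 5.02 was 6.63 and 4.21 with pseudocounts of 0.1 and 1, 5.55 with the longest transcript, 7.54 without length correction and 2.72 over members with at least 10 counts in all. The pseudocount and the count minimum act on members near 0 by construction, and beyond that the cause was not tested. The number of genes detected ranged from 15 to 19 over all settings, and 8 to 10 pairs were separated. With a minimum of 4-fold, 2 of the 24 tested genes differed between the libraries, against 13.9% of all genes. No fold minimum gave 18, against 77.8%, and every other alternative 9 to 12, against 35.7% to 37.1%. Leaving out a library was not possible for that comparison.

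Some directions turned. With TMM and DESeq2 factors the log2 ratio of B over A became -0.28 and -0.31 for Adcyap1, -0.13 and -0.15 for Gal, -0.32 and -0.35 for Scg5, and -0.092 and -0.12 for Cpe. Without length correction the log2 ratio became 0.26 for Adcyap1 over Cartpt, 0.37 for Adcyap1 over Nucb2, -0.41 for Penk over Pdyn and -0.37 for Pcsk1n over Pcsk1. With the longest transcript Scg2 over Scg3 was -0.025. Without library A and without library B in turn, the log2 ratios were -0.39 and 0.97 for Scg2 over Scg3, -0.82 and 2.91 for Cartpt over Nucb2, -0.92 and 0.90 for Adcyap1 over Nucb2, and -0.37 and 0.20 for Scg5 over Pcsk2. Per length, none of the pairs whose direction turned was separated with both libraries. Without length correction Scg5 over Pcsk2 was, at -2.46. Without B the intervals of Cartpt over Nucb2 (2.91), Pcsk1n over Pcsk1 (3.57) and Adcyap1 over Cartpt (-2.01) excluded 0. That of Cpe over Scg2 (1.70), a pair separated with both libraries, no longer did. The cause was not tested. With no read, a gene can stand at up to 0.379 CPM in A and 0.218 CPM in B. Both libraries are of 1 group, so no paired analysis was possible because there is no second group.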
